A study of Rattus norvegicus with 22 samples.

Results

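Solute carriers are membrane proteins that move small molecules such as sugars, amino acids, bile acids, metals, nucleosides and ions across the cell surface or the membranes of organelles. Each numbered family carries a kind of substrate. The liver uses them to take up bile acids, fatty acids and glucose from the blood, and the growing embryo depends on carriers for glucose and amino acids that reach it through the yolk sac and placenta. Their RNA levels were read here in the livers of pregnant rats and in their embryos. The members were all probe sets annotated with a single gene symbol of the Slc series: 278 probe sets of 227 genes in 47 families, among 15866 probe sets on the array. A probe set is a group of short probes that reports on 1 transcript; 188 genes had 1 probe set and 39 had several. Slc4a1ap and Slc7a6os have such symbols but are named after a neighbouring gene or a partner protein and are not carriers. The Slco uptake carriers and Abc pumps, with 50 probe sets, were kept apart.

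The samples were 22 arrays, 1 per RNA sample, from Wistar rat dams and their offspring. Dams had received EMD 82571, which the series also calls MSC1096199, at 50 or 150 mg/kg/day (here EMD50 and EMD150), retinoic acid at 12 mg/kg/day, or vehicle (control). The labels give dosing on gestational days 6 to 11 and days 6 to 17. Tissues were embryo bone and embryo liver at day 20, whole embryo at day 12, and maternal liver at days 20 and 12, which makes 5 strata. In each of them 1 array was taken per treatment, while the retinoic acid groups of day 12 had 2 arrays each (RA5 and RA56, codes that the labels do not explain). The retinoic acid arrays of day 20 all carry the code RA56. The labels do not say whether samples came from the same dam or were pooled, so p-values measure the spread between these arrays, which may be partly technical. The age of the dams is not stated in the labels.

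Values are the deposited log2 values of each probe set, so a difference of 1 is 2-fold. They were never compared between probe sets. Within a stratum, single values are listed in the order retinoic acid, control, EMD50, EMD150, and at day 12 RA5, RA56, control, EMD50, EMD150. Over the members, arrays of 1 stratum correlated at r of 0.939 to 0.995 (38 pairs) and arrays of different strata at 0.596 to 0.981 (193 pairs). Markers fitted the labels in most arrays: 6 bone and cartilage genes averaged 12.16 to 12.52 in bone and at most 8.40 elsewhere. Some arrays also held genes of another tissue. In bone the hepatocyte list of 7 genes averaged 9.60 in the retinoic acid and 9.68 in the control array, against 8.13 (EMD50) and 8.56 (EMD150). In the retinoic acid array of maternal liver at day 20, 7 skeletal muscle genes averaged 10.19, against 6.93 in the control array. Whole embryo arrays differed in yolk sac genes, as given below with the carriers concerned, and their hepatocyte list averaged 9.22 (RA5) and 9.20 (RA56), against 8.44 in the control. A 7-gene list of the pancreas averaged 10.94 in the control and 10.23 in the EMD50 array of maternal liver at day 12, against 7.65 to 7.75 in the other arrays of that stratum. At day 20 it averaged 9.48 in the control, against 7.97 to 8.02 in the other maternal livers. The EMD50 bone array had a GAPDH 3′ minus 5′ difference of 2.72, a sign of RNA quality, against 0.568 to 0.859 in all other arrays. In such whole-tissue RNA, fewer cells of a type and less RNA per cell cannot be told apart.

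Between tissues, 5 comparisons called 96 to 204 members each, and no treatment comparison called more than 27. Comparing strata asks which carriers belong to which tissue. A model over all arrays (limma, with stratum and treatment as terms) called probe sets at an adjusted p under 0.05, adjusted over all 15866. Embryo liver against whole embryo had the most called members: 158 were higher (56.8% of members, against 39.2% of all probe sets) and 46 lower (16.5%, against 33.6% of all), together 73.4% of members and 72.9% of all. Whole embryo against maternal liver of the same day gave 51 higher (18.3%, against 35.5% of all) and 135 lower (48.6%, against 34.3%), together 66.9%, against 69.8%. Bone against embryo liver gave 54 higher (19.4%, against 25.6%) and 126 lower (45.3%, against 29.6%), together 64.7%, against 55.2%. Embryo liver against maternal liver at day 20 gave 44 higher (15.8%, against 16.4%) and 75 lower (27%, against 16.6%), together 42.8%, against 33%. Bone against whole embryo gave 62 higher (22.3%, against 19.9%) and 34 lower (12.2%, against 26.7%), together 34.5%, against 46.6%. Within maternal liver, day 20 against day 12 gave 13 higher (4.68%, against 1.99%) and 8 lower (2.88%, against 2.48%), together 7.55%, against 4.47%. The share of members was thus above that of all probe sets on the liver side of the 3 comparisons of a liver with whole embryo or bone. The median member difference in embryo liver minus whole embryo was 0.30, beside 0.07 over all probe sets. In 99 members (35.6%, against 35.7% of all probe sets) the 22 arrays spanned less than 1 log2 unit, and in 18 (6.47%, against 4.88%) they spanned 4 or more.

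**Figure D1:**
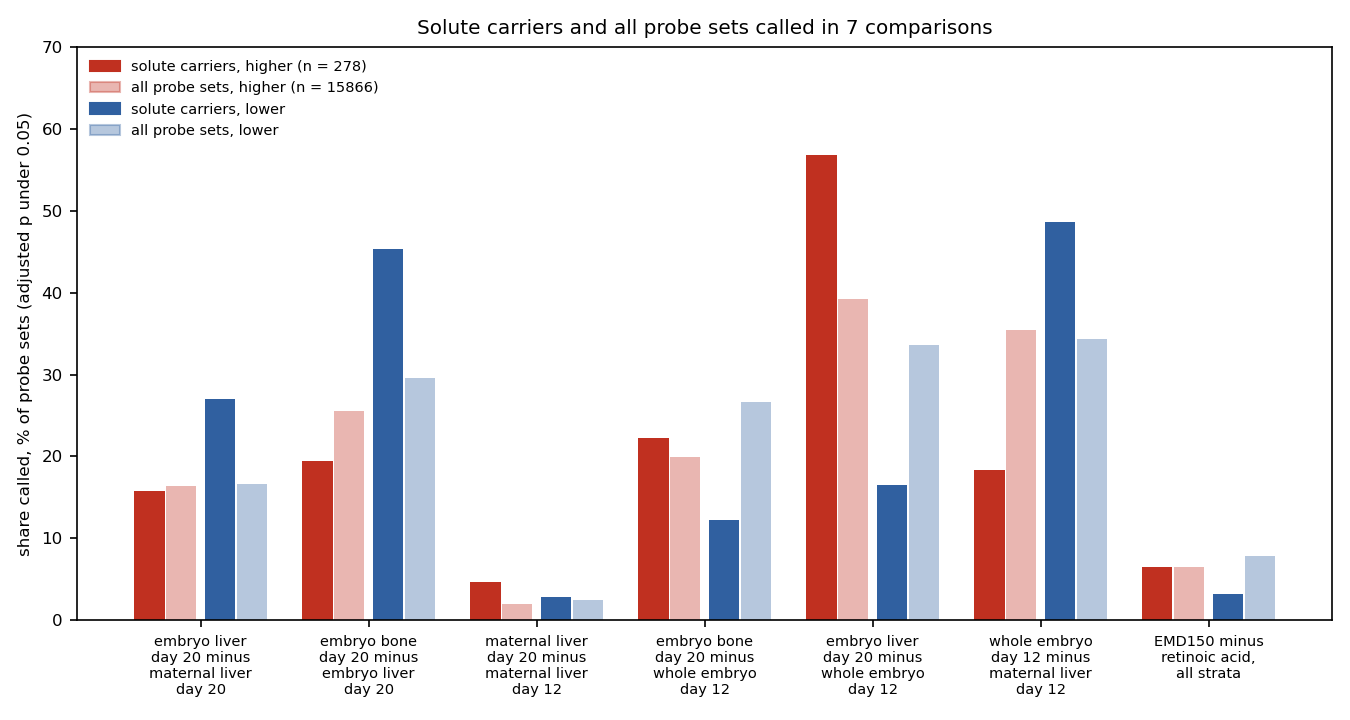
Share of probe sets called higher (red) and lower (blue) in the 6 stratum comparisons and in EMD150 minus retinoic acid; dark bars are the 278 solute carrier probe sets and pale bars all 15866. Carriers called lower in whole embryo minus maternal liver make up 48.6%, against 34.3% of all probe sets.

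Carriers that marked the livers as a class were defined by a gap: the lowest of all 13 liver arrays lay at least 1 log2 unit above the highest of the bone and whole embryo arrays. There were 8 (2.88% of members, against 1.5% of all probe sets). Both maternal liver strata were set apart from all else by 9 (3.24%, against 1.71%). Of these, Slc16a7, Slc22a7, Slc31a1, Slc38a4 and Slc41a2 marked the maternal livers only, with embryo liver on the low side of the gap. The other 4 members were in both groups, which leaves 13 genes. They covered the uptake of bile acids (Slc10a1), organic anions (Slc22a7), glucose (Slc2a2), glutamine and other amino acids (Slc38a3, Slc38a4), fatty acids (Slc27a2, Slc27a5), monocarboxylates (Slc16a7, Slc16a12), copper (Slc31a1) and magnesium (Slc41a2). Slc17a3, of the phosphate and urate carriers, and Slc22a18, an imprinted member of the organic cation family, completed them.

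Slc10a1 makes NTCP, the sodium-driven bile acid uptake carrier of hepatocytes. Its values in embryo liver were 9.86, 9.05, 8.95 and 8.13, in maternal liver at day 20 11.82, 11.71, 11.97 and 11.80, and in maternal liver at day 12 12.15, 11.97, 12.02, 12.03 and 11.99. In bone they were 5.85, 5.62, 5.66 and 5.82, and in whole embryo 5.88, 5.76, 5.82, 5.77 and 5.86. No liver array overlapped with any bone or whole embryo array, and the embryo livers lay between the maternal livers and the rest. The difference was -6.21 ± 0.176 (adjusted p = 1.49e-16) for whole embryo minus maternal liver at day 12 and -2.83 ± 0.197 (adjusted p = 5.83e-10) for embryo liver minus maternal liver at day 20. The promoters of Slc10a1 and Slc16a7 are shown because, of the 12 liver-marking genes with a RefSeq promoter (GRCr8, the 250 bases before the start), they were the ones that held GTTAAT, a half-site of the liver factor HNF1, on either strand. The stretches are chr6:106357945-106358194 and chr7:63040399-63040648, both on the minus strand, printed 5′ to 3′ with the motif in capitals.
Slc10a1: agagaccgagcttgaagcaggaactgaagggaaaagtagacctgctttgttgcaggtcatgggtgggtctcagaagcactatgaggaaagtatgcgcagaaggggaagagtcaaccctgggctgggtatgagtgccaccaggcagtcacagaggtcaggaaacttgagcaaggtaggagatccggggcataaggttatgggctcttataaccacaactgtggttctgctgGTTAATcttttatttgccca
Slc16a7: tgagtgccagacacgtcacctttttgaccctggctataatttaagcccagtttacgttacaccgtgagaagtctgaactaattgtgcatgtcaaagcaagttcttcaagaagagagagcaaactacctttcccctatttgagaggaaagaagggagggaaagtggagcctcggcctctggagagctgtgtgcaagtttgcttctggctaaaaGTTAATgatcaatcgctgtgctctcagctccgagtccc
The motif ended 15 bases before the start of Slc10a1 and 33 before that of Slc16a7. It was in 2 of 12 promoters of liver-marking genes, in 14 of 192 member promoters (7.29%) and in 6.46% of 27457 promoters in the table. CAAAGTCCA, a site of HNF4 and not overlapping in letters with the first, was in none of those 12, in 1 of 192 (0.521%) and in 0.331% of all. These matches describe letters only.

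Slc2a2 is GLUT2, the glucose carrier of liver, pancreas and gut. It read 11.34, 11.24, 11.12 and 10.76 in embryo liver, 11.26, 11.87, 12.10 and 11.85 in maternal liver at day 20 and 11.87, 11.40, 11.47, 11.45 and 11.25 at day 12. In bone it read 5.79, 6.61, 6.16 and 6.56. In whole embryo it read 9.68, 7.76, 8.37, 6.47 and 5.99, the widest spread of any stratum for this gene, and none of these reached the livers. Bone minus embryo liver was -4.84 ± 0.474 (adjusted p = 5.71e-08), and embryo liver minus whole embryo 3.51 ± 0.452 (adjusted p = 1.48e-06). Albumin in bone read 13.60 in both the retinoic acid and the control array, against 10.70 (EMD50) and 9.44 (EMD150). Apoa1, Serpina1 and Cps1 of the hepatocyte list were also higher in the retinoic acid and control arrays of bone. Its other genes, Ttr, Tat and Cyp2e1, were highest with EMD150, with Ttr at 11.29, 12.1, 10.99 and 12.87. Fetal Afp read 7.58, 12.34, 7.82 and 7.66, high in the control only. Slc2a2 in bone did not follow albumin, as it was lowest with retinoic acid. Slc31a1, another liver-marking gene, was lower in bone with EMD50 (-1.52) and EMD150 (-1.17) than in the control in 1 probe set. The part of liver RNA in the bone values was not tested.

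Slc38a3 is SNAT3, a glutamine carrier of hepatocytes, and had the widest gap between livers and the rest, 3.08 log2 units. Its values were 10.45, 10.49, 10.39 and 10.06 in embryo liver and 6.57, 6.95, 6.76, 6.65 and 6.98 in whole embryo. The maternal livers read 11.46 to 11.78 at day 20 and 11.36 to 11.55 at day 12. Embryo liver minus whole embryo was 3.57 ± 0.114 (adjusted p = 4.51e-15). Its relative Slc38a4 (SNAT4) was mainly maternal, with 12.23, 12.36, 12.22 and 12.28 at day 20 and 11.81, 11.77, 11.86, 12.04 and 11.81 at day 12, against 9.21, 9.08, 8.96 and 8.04 in embryo liver. The EMD150 embryo liver was the lowest of these. Embryo liver minus maternal liver at day 20 was -3.45 ± 0.292 (adjusted p = 1.12e-08), a 10.9-fold lower level.

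Fatty acid carriers Slc27a2 and Slc27a5, which also activate very long chain fatty acids and bile acids, differed in stage. Slc27a2 averaged 11.48 ± 0.26 in embryo liver and 12.72 ± 0.04 in maternal liver at day 20 (SD, n = 4 each). Slc27a5 averaged 8.92 ± 0.37 in embryo liver and 12.10 ± 0.11 in maternal liver at day 20 (SD, n = 4 each). The difference for Slc27a5 was -3.18 ± 0.14 (adjusted p = 5.99e-13). Whole embryo minus maternal liver at day 12 was -5.55 ± 0.125 (adjusted p = 4.77e-18) for Slc27a5 and -4.52 ± 0.157 (adjusted p = 2.84e-15) for Slc27a2. Slc22a7 (OAT2, an organic anion carrier) averaged 8.61 ± 0.04 in embryo liver and 11.58 ± 0.46 in maternal liver at day 20, with -2.97 ± 0.148 (adjusted p = 3.62e-12). Slc41a2, a magnesium carrier, read 7.03, 7.10, 7.51 and 7.14 in embryo liver and 10.99, 10.65, 11.50 and 10.91 in maternal liver at day 20. It was -3.82 ± 0.104 (adjusted p = 3.86e-16) in embryo liver minus maternal liver, with no overlap between the strata, and bone (7.55 to 7.87) lay above every embryo liver array.

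**Figure D2:**
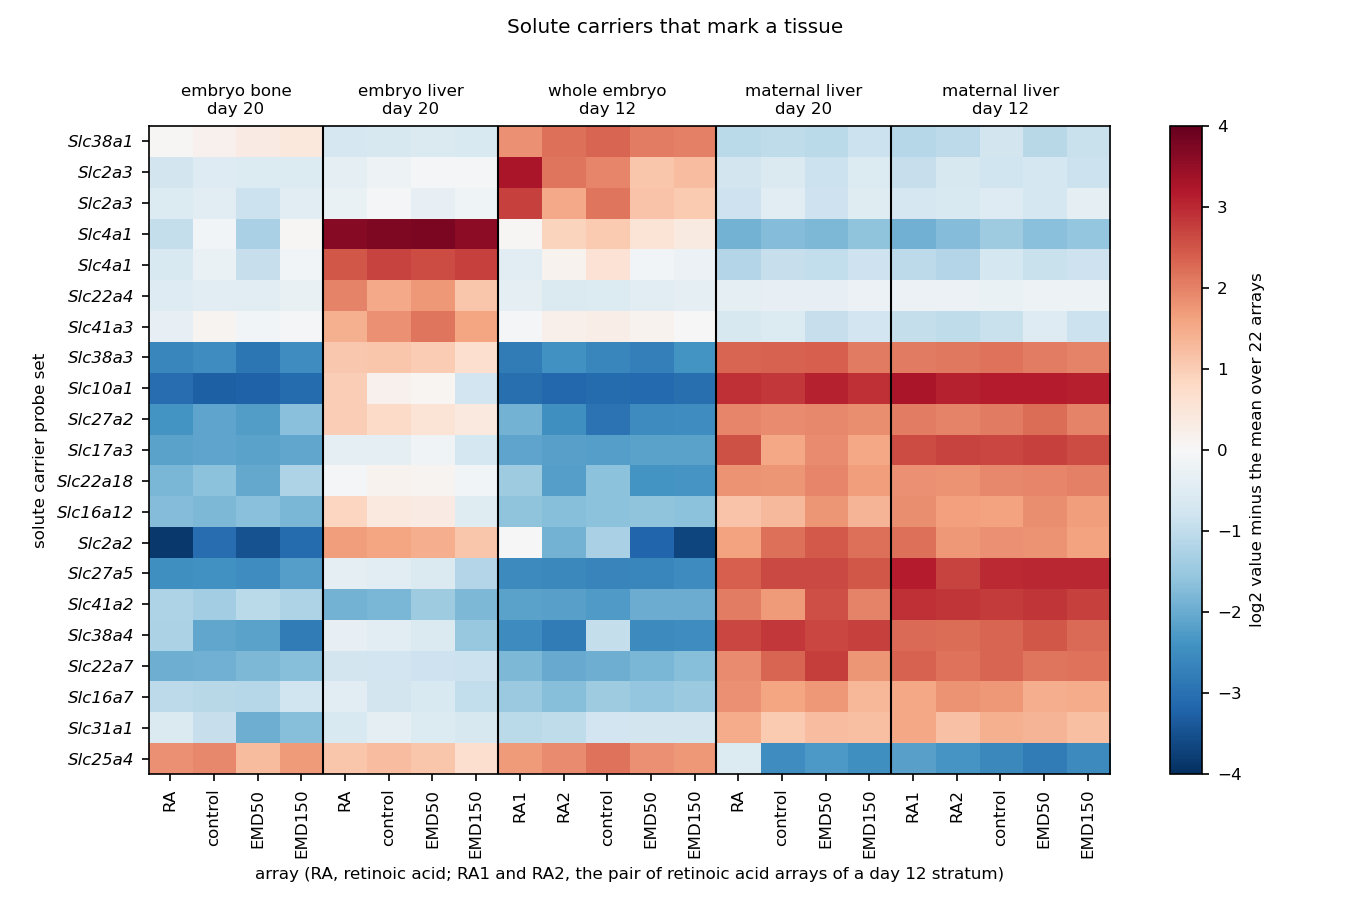
Each row is a solute carrier probe set that marks a stratum or class of strata by a gap of at least 1 log2 unit, and each column 1 of the 22 arrays; colour is the log2 value minus the mean of the row over all arrays. Slc38a3 and Slc10a1 are high in all livers, Slc4a1 in embryo liver, Slc2a3 and Slc38a1 in whole embryo, and Slc25a4 in all arrays of embryo and bone.

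The members were also counted by substrate class. Rose and fell here mean called at any size. Of the 204 members called in embryo liver minus whole embryo, 46 differed at least 2-fold. In embryo liver minus whole embryo these counts stand beside 39.2% higher and 33.6% lower of all probe sets. Of 18 probe sets for bile acids, organic ions and drugs, 15 rose and 2 fell (83.3% and 11.1%). In whole embryo minus maternal liver 2 of them rose and 13 fell (11.1% and 72.2%, against 35.5% and 34.3% of all). Of 31 for neurotransmitters and vesicles, 23 rose and 3 fell in embryo liver minus whole embryo (74.2% and 9.68%), with a median difference of 0.44. Slc6a13 (GAT2, a GABA and taurine carrier of the liver) led them with 2.59 ± 0.194 (adjusted p = 9.1e-10). The neural marker list went the other way, averaging 6.72 to 7.05 in embryo liver and 8.25 to 8.89 in whole embryo. The median of all members was 8.16 to 8.22 in the embryo liver arrays and 7.69 to 7.91 in whole embryo. The part of low signals in these counts was not tested. Of 14 for mono- and dicarboxylates, 10 rose and 1 fell (71.4% and 7.14%), led by Slc16a10 (a carrier of aromatic amino acids) with 1.95 ± 0.145 (adjusted p = 8.1e-10). Nearer to the shares of all probe sets were the 34 amino acid probe sets, of which 17 rose and 9 fell (50% and 26.5%), and the 33 mitochondrial carriers, of which 18 rose and 8 fell (54.5% and 24.2%). In bone minus embryo liver 4 mitochondrial carriers rose and 19 fell (12.1% and 57.6%, against 25.6% and 29.6% of all). Among those that fell were Slc25a13 (citrin, the aspartate and glutamate carrier of the urea cycle) with -3.27 ± 0.157 (adjusted p = 1.43e-12) and Slc25a15 (the ornithine carrier) with -1.88 ± 0.16 (adjusted p = 7.33e-09). Of 20 sugar probe sets, 10 rose and 5 fell in embryo liver minus whole embryo (50% and 25%). The nucleotide sugar carriers, which feed glycosylation in the Golgi, went the other way: of 16, 8 rose and 2 fell in bone minus embryo liver (50% and 12.5%), and 3 rose and 6 fell in embryo liver minus whole embryo (18.8% and 37.5%). Their median difference in bone minus embryo liver was 0.31, beside -0.19 for all members and -0.07 for all probe sets.

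Embryo liver had its own marks, 4 probe sets (1.44%, against 0.372% of all probe sets). The largest was Slc4a1, band 3, the chloride and bicarbonate exchanger of red cells, in both of its probe sets. The first read 12.74, 12.83, 12.84 and 12.66 in embryo liver and 7.21, 7.34, 7.29 and 7.47 in maternal liver at day 20. Whole embryo (9.14, 9.99, 10.14, 9.63 and 9.45) and bone (8.14, 8.99, 7.79 and 9.14) lay between these, and no array of another stratum reached the embryo livers. The difference was 5.44 ± 0.208 (adjusted p = 6.26e-14) for embryo liver minus maternal liver and -4.25 ± 0.208 (adjusted p = 2.02e-12) for bone minus embryo liver. Slc4a1 is itself on the erythroid marker list. Of its 6 genes 3 were measured, and their mean was 13.52 to 13.68 in embryo liver, 11.53 to 12.20 in bone, 9.89 to 11.08 in whole embryo and 9.88 to 11.25 in the maternal livers; Alas2, another of them, read 13.49, 13.67, 13.74 and 13.41 in embryo liver. The part of red cells in the other differences was not tested.

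Slc22a4 (OCTN1, the ergothioneine carrier) read 8.01, 7.55, 7.75 and 7.14 in embryo liver and 5.65 to 5.79 in maternal liver at day 20, a difference of 1.90 ± 0.114 (adjusted p = 6.56e-11). Slc41a3, a magnesium carrier of mitochondria, read 9.92, 10.32, 10.65 and 10.07 in embryo liver and 7.57 to 7.95 in maternal liver at day 20, with 2.46 ± 0.127 (adjusted p = 6.51e-12). Amino acid carriers went both ways between embryo liver and maternal liver. Of their 34 probe sets 10 rose and 7 fell (29.4% and 20.6%, against 16.4% and 16.6% of all probe sets). Higher in embryo liver were 4 of those named. Slc38a5 (SNAT5) had 1.51 ± 0.123 (adjusted p = 6.81e-09), Slc1a5 (ASCT2) 1.44 ± 0.154 (adjusted p = 3.13e-07), Slc7a5 (LAT1) 1.37 ± 0.13 (adjusted p = 5.96e-08) and Slc7a1 (CAT1, for arginine and lysine) 0.91 ± 0.107 (adjusted p = 9.59e-07). Lower were Slc38a4, given above, and Slc7a7 (y+LAT1, a carrier of cationic amino acids), at -1.99 ± 0.137 (adjusted p = 4.56e-10). Slc20a1 (phosphate, 1.16 ± 0.129 (adjusted p = 5.18e-07)) and Slc11a2 (DMT1, iron uptake, 0.93 ± 0.166 (adjusted p = 0.000161)) also rose. Of 27 metal carriers, 3 rose and 13 fell (11.1% and 48.1%). Slc31a1 (CTR1, copper uptake) had -1.80 ± 0.2 (adjusted p = 5.18e-07). Among mitochondrial carriers, Slc25a25 (-2.74 ± 0.263 (adjusted p = 6.6e-08)) and Slc25a30 (-2.62 ± 0.162 (adjusted p = 1.01e-10)) were lower in embryo liver.

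Slc25a4 is ANT1, the ADP and ATP exchanger of heart and muscle mitochondria, and was the member that set embryo tissues apart from the dam (1 of 278, 0.36%, against 0.359% of all probe sets). It read 13, 13.07, 12.42 and 12.86 in bone, 12.27, 12.41, 12.26 and 11.83 in embryo liver and 12.88, 13.06, 13.34, 13 and 12.91 in whole embryo. Maternal liver read 10.61, 8.69, 8.88 and 8.71 at day 20 and 8.99, 8.81, 8.59, 8.35 and 8.61 at day 12. The retinoic acid array of day 20 was the highest of these 9, and it is the array with muscle genes (Acta1 12.83, against 6.58 in the control array); their part in its value was not tested. Whole embryo minus maternal liver at day 12 was 4.37 ± 0.233 (adjusted p = 1.97e-12).

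Whole embryo at day 12 was marked by 3 probe sets (1.08%, against 0.479%): Slc38a1 and both of Slc2a3. Slc2a3 is GLUT3, a high-affinity glucose carrier of neurons and the early embryo. Its first probe set read 10.49, 9.37, 9.20, 8.33 and 8.47 in whole embryo, with 6.49 to 6.73 in bone, 6.87 to 7.15 in embryo liver and 6.30 to 6.59 in maternal liver of day 12. Every whole embryo array was above every other array. Whole embryo minus maternal liver was 2.73 ± 0.249 (adjusted p = 6.98e-09), and bone minus whole embryo -2.49 ± 0.265 (adjusted p = 2.5e-07). Slc2a1 (GLUT1, of red cells, placenta and blood-brain barrier) read 12.34, 11.74, 12.04, 11.57 and 11.56 in whole embryo and 8.60, 8.88, 8.92, 9.16 and 8.65 in maternal liver of day 12. Embryo liver (9.93 to 10.11) and bone (9.39 to 10.70) lay between them. Whole embryo minus maternal liver was 3.01 ± 0.191 (adjusted p = 2.83e-11), and embryo liver minus maternal liver 1.25 ± 0.213 (adjusted p = 0.0001). The 3 glucose carriers thus had different orders: Slc2a2 was highest in the livers, and Slc2a1 and Slc2a3 in the whole embryo.

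Slc38a1 (SNAT1, glutamine uptake) read 8.40, 8.77, 8.90, 8.61 and 8.59 in whole embryo, against 5.43, 5.53, 5.85, 5.45 and 5.67 in maternal liver. The groups did not overlap, and the difference was 3.07 ± 0.0841 (adjusted p = 8.91e-17). Slc39a10 (ZIP10, zinc uptake) read 9.76, 10.30, 10.54, 10.07 and 10.23 in whole embryo and 7.26, 7.20, 7.43, 7.43 and 7.18 in maternal liver, a difference of 2.88 ± 0.198 (adjusted p = 9.67e-11). Embryo liver was low as well (6.43 to 6.84). Slc12a2 (NKCC1, 1.42 ± 0.152 (adjusted p = 7.11e-08)), Slc38a2 (SNAT2, 1.74 ± 0.148 (adjusted p = 2.47e-09)), Slc16a3 (MCT4, lactate export, 1.35 ± 0.157 (adjusted p = 2.32e-07)) and Slc35a4 (1.82 ± 0.121 (adjusted p = 5.97e-11)) were also higher in whole embryo than in maternal liver. Of the amino acid probe sets, 14 rose and 9 fell in that comparison (41.2% and 26.5%, against 35.5% and 34.3% of all probe sets).

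**Figure D3:**
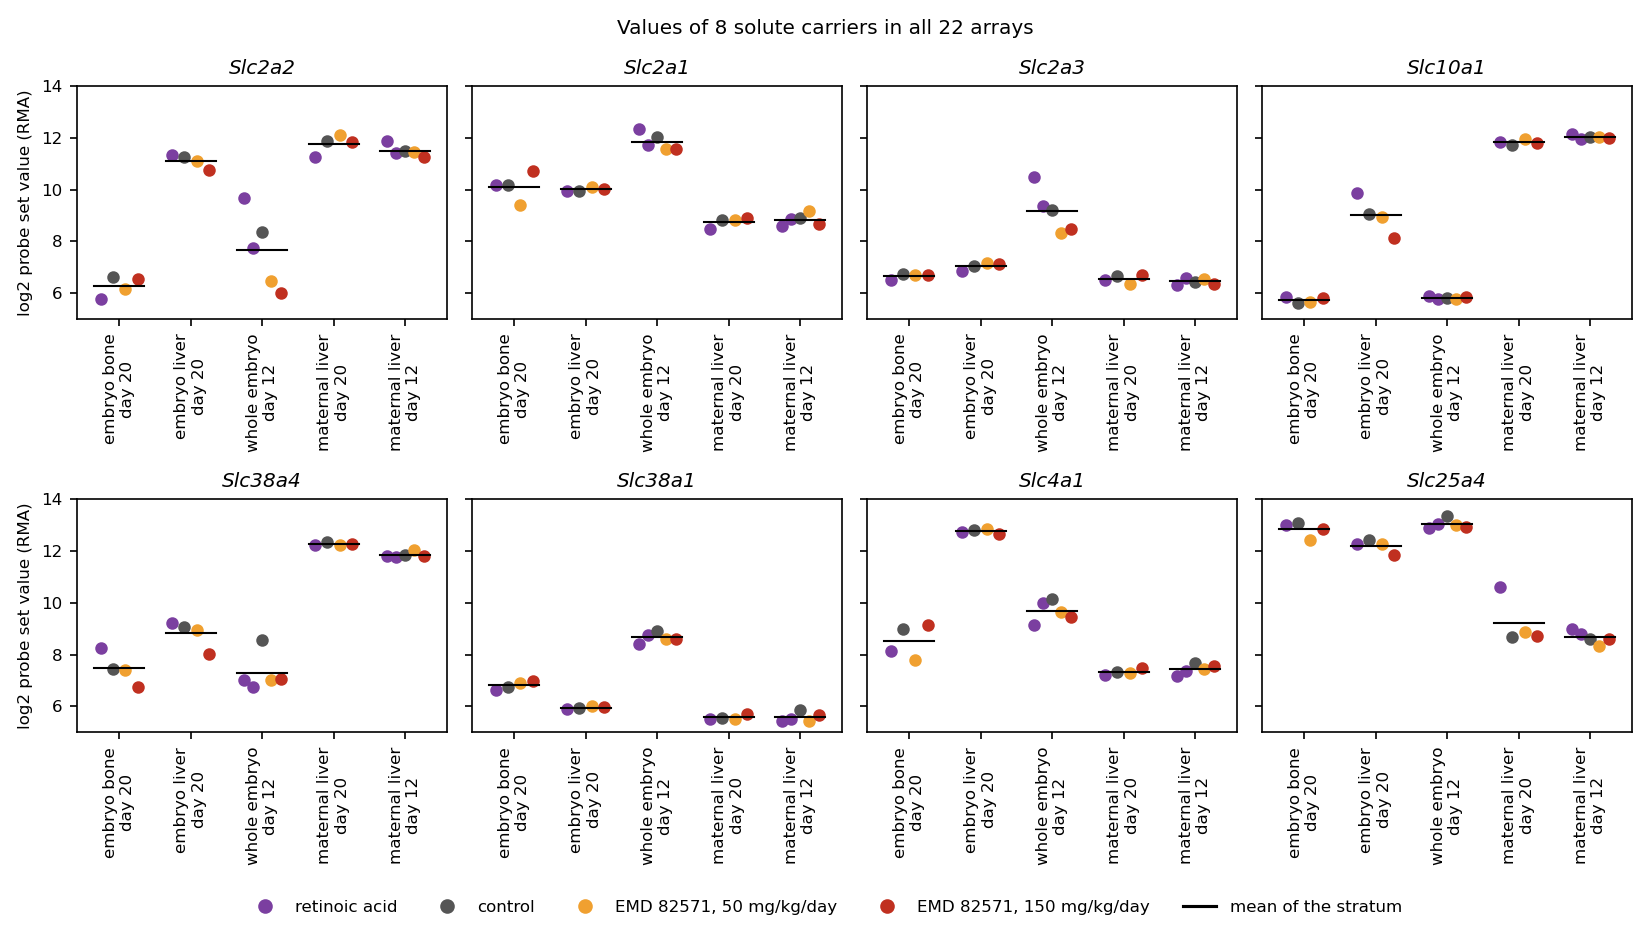
Log2 values of 8 solute carrier probe sets in every array, by stratum (tissue and day); points are arrays coloured by treatment and lines are stratum means. Slc2a2 lies at 10.76 to 12.10 in the livers and 5.79 to 6.61 in bone, and Slc2a1 at 11.56 to 12.34 in whole embryo.

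No member marked bone by a gap of 1 log2 unit (0, against 1.29% of all probe sets), and none marked a single day of maternal liver (0.0126% of all at day 12 and 0.0252% at day 20). The 54 members higher in bone than in embryo liver were a smaller share than among all probe sets (19.4%, against 25.6%). Slc39a10 read 9.46, 8.78, 8.37 and 8.56 in bone, 2.12 ± 0.221 (adjusted p = 1.4e-07) above embryo liver. Slc22a17, a receptor for lipocalin, had 2.01 ± 0.13 (adjusted p = 1.27e-10), and Slc38a2 1.88 ± 0.166 (adjusted p = 1.24e-08). Slc1a3 (GLAST, glutamate) had 1.66 ± 0.117 (adjusted p = 4.46e-10), Slc6a8 (creatine) 1.66 ± 0.13 (adjusted p = 2.07e-09) and Slc2a13 (myo-inositol) 1.47 ± 0.224 (adjusted p = 1.95e-05). Slc39a13 (ZIP13, a zinc carrier needed by connective tissue) averaged 10.12 ± 0.32 in bone and 8.90 ± 0.18 in embryo liver (SD, n = 4 each), with 1.22 ± 0.127 (adjusted p = 1.37e-07). Bone was also above whole embryo for Slc39a13, at 1.23 ± 0.121 (adjusted p = 8.67e-08). Slc44a1, a choline carrier, had 1.04 ± 0.154 (adjusted p = 1.42e-05) and Slc17a5 (sialin, of lysosomes) 0.90 ± 0.1 (adjusted p = 4.39e-07) in bone minus whole embryo. Of 31 neurotransmitter and vesicle probe sets, 11 rose and none fell in bone minus whole embryo (35.5% higher, against 19.9% of all). Their median difference there was 0.175. In bone minus embryo liver 5 rose and 18 fell (16.1% and 58.1%), with a median of -0.279. Bone arrays also held muscle and keratinocyte genes. The means of those lists were 9.26 to 9.77 and 11.26 to 11.37 in bone, against 7.46 to 7.79 and 7.44 to 8.34 in embryo liver, and their part in these differences was not tested.

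In maternal liver, 21 members differed between late pregnancy and day 12. Slc25a30, a mitochondrial carrier, read 10.55, 10.65, 11.06 and 10.17 at day 20 and 9.28, 9.09, 9.07, 8.70 and 8.42 at day 12. The days did not overlap, and day 20 minus day 12 was 1.71 ± 0.155 (adjusted p = 1.46e-06). Slc6a9 (GlyT1, glycine) read 10.01, 10.29, 10.23 and 9.75 at day 20 and 8.86, 8.83, 8.57, 8.39 and 8.26 at day 12, with 1.49 ± 0.15 (adjusted p = 6.14e-06). Slc7a7 (1.06 ± 0.13 (adjusted p = 6.16e-05)), Slc25a33 (pyrimidine nucleotides, 1.04 ± 0.114 (adjusted p = 1.46e-05)), Slc25a25 (1.17 ± 0.251 (adjusted p = 0.00965)) and Slc6a13 (0.81 ± 0.194 (adjusted p = 0.0182)) also rose. Slc34a2 (NaPi-IIb, phosphate) read 7.16, 6.93, 7.05 and 6.95 at day 20 and 8.11, 7.76, 8.39, 8.57 and 8.51 at day 12, again with no overlap, and -1.25 ± 0.154 (adjusted p = 5.78e-05). Slc17a1 (-0.96 ± 0.202 (adjusted p = 0.00853)), Slc28a2 (CNT2, purine nucleosides, -0.83 ± 0.129 (adjusted p = 0.000674)), Slc41a2 (-0.76 ± 0.0991 (adjusted p = 0.000116)) and Slc17a3 (-0.76 ± 0.14 (adjusted p = 0.00296)) fell. Without the control array of day 20, 13 members were called in place of 21. That array held pancreas genes (list mean 9.48), as did the control (10.94) and EMD50 (10.23) arrays of day 12. The part of those genes was not tested.

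Several genes gave called differences of opposite sign from different probe sets, so no direction is given for them in those comparisons. These were Slc1a2 in embryo liver minus maternal liver, and Slc24a3, Slc27a3, Slc30a9, Slc35a1 and Slc38a1 in bone minus embryo liver. The others were Slc1a3 in bone minus whole embryo, Slc27a3, Slc30a9 and Slc35b1 in embryo liver minus whole embryo, and Slc27a3 and Slc30a9 in whole embryo minus maternal liver. Slc38a1 and Slc1a3 are named above only by the probe set with the largest difference.

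The other membrane carriers were 50 Abc and Slco probe sets. In embryo liver minus whole embryo 30 rose and 3 fell (60% and 6%, against 39.2% and 33.6% of all probe sets). In whole embryo minus maternal liver 6 rose and 32 fell (12% and 64%, against 35.5% and 34.3%). In embryo liver minus maternal liver 6 rose and 19 fell (12% and 38%, against 16.4% and 16.6%), and in bone minus embryo liver 4 rose and 21 fell (8% and 42%, against 25.6% and 29.6%). They had 11 higher and 4 lower in bone minus whole embryo (22% and 8%, against 19.9% and 26.7%). Day 20 minus day 12 of maternal liver had 1 higher and 2 lower (2% and 4%, against 1.99% and 2.48%).

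The treatment comparisons used the strata as repeats, since each treatment had 1 array per stratum at day 20. EMD150 minus control called no member (0% of all probe sets). At an unadjusted p under 0.05 were 46 of 278 members and 2925 of all 15866 probe sets. The smallest p in each direction belonged to Slc32a1 (VGAT), at 0.24 ± 0.0656 (adjusted p = 0.195), and Slc31a2 (CTR2, copper), at -0.27 ± 0.054 (adjusted p = 0.195). Slc31a2 in the EMD150 arrays was 5.94 in bone, 5.76 in embryo liver, 5.74 in whole embryo, 6.22 in maternal liver at day 20 and 6.44 at day 12. The control arrays read 6.17, 6.07, 6.05, 6.62 and 6.54 in the same order, so EMD150 was the lower in 5 of 5 strata. The gene was picked by its p over these same strata, so this count adds no support of its own. EMD50 minus control called none (0% of all), with 8 members and 253 of all probe sets at an unadjusted p under 0.05. Its smallest p was that of Slc41a2, at 0.39 ± 0.093 (adjusted p = 1).

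Retinoic acid minus control called no member (0, against 1.83% of all probe sets, 1.78% higher and 0.0567% lower). At an unadjusted p under 0.05 were 1976 of all 15866 probe sets, among them 25 members. The nearest were Slc30a4 (ZnT4, zinc), at 0.44 ± 0.117 (adjusted p = 0.0605), and Slc22a3 (OCT3, organic cations), at -0.31 ± 0.0844 (adjusted p = 0.0664). Slc30a4 in bone was 9.43 with retinoic acid and 8.58 in the control. Slc39a8 (ZIP8, zinc and manganese), at 0.58 ± 0.194 (adjusted p = 0.151), read 9.14 with retinoic acid in bone, against 7.69, and 10.52 with retinoic acid in maternal liver at day 20, against 9.38. At day 12 it was 10.07 and 10.22 with retinoic acid in maternal liver and 10.17 in the control. The part of the muscle genes in the day 20 maternal liver value was not tested.

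Effects fitted apart for the maternal livers and the embryo tissues also called no member. EMD 82571, as the mean of both doses, minus control had 0 in maternal liver (0% of all, 3 at an unadjusted p under 0.05) and 0 in embryo tissues (0% of all, 21 unadjusted). Its effect in maternal liver minus that in embryo tissues had 0 (0% of all, 2 unadjusted). Retinoic acid minus control had 0 in maternal liver (0.0756% of all, 9 unadjusted) and 0 in embryo tissues (1.9% of all, 1.81% higher and 0.0945% lower, 17 unadjusted). For retinoic acid the difference between the sides had 0 (0% of all, 2 unadjusted). The unadjusted counts over all 15866 probe sets were, in the same order, 123, 1733, 340, 499, 1943 and 465. Among the members with the smallest p-values was Slc38a4 in embryo tissues with EMD 82571, at -0.84 ± 0.281 (adjusted p = 0.451). Slc25a4 was another, with retinoic acid in maternal liver. Its difference was 0.95 ± 0.282 (adjusted p = 1), and it read 10.61 in the day 20 retinoic acid array with muscle genes, against 8.69 in the control array. At day 12 it was 8.99 and 8.81 with retinoic acid, against 8.59, and the part of the muscle genes was not tested.

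EMD150 against retinoic acid, which share no array, called 27 members (9.71%, against 14.4% of all probe sets), 18 higher (6.47%, against 6.49%) and 9 lower (3.24%, against 7.89%). None of them reached 2-fold. Slc18a2 (VMAT2, the vesicle carrier of monoamines) read 8.80 with EMD150 in bone, 9.33 in embryo liver, 8.39 in whole embryo, 8.76 in maternal liver at day 20 and 8.67 at day 12. With retinoic acid it read 7.59 in bone, 8.38 in embryo liver, 8.11 and 7.94 in whole embryo, 8.50 in maternal liver at day 20, and 8.18 and 8.41 at day 12. EMD150 was higher in 5 of 5 strata, the repeats of this fit, and the fitted difference was 0.60 ± 0.109 (adjusted p = 0.00718). The probe set was picked by this same fit, so the count of strata adds no support of its own. The other probe set of Slc18a2 was not called, at 0.13 ± 0.087 (adjusted p = 0.284). Slc32a1 (0.31 ± 0.0613 (adjusted p = 0.00792)), Slc14a2 (urea, 0.33 ± 0.0799 (adjusted p = 0.0165)), Slc5a5 (NIS, iodide, 0.36 ± 0.0994 (adjusted p = 0.0281)) and Slc1a1 (EAAT3, glutamate, 0.33 ± 0.103 (adjusted p = 0.0395)) were also higher.

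Slc50a1 (SWEET1, glucose) was lower with EMD150, at 7.86 in bone, 8.25 in embryo liver, 7.41 in whole embryo, 7.69 in maternal liver at day 20 and 7.69 at day 12. With retinoic acid it was 9.02 in bone, 8.58 in embryo liver, 7.84 and 7.60 in whole embryo, 8.35 in maternal liver at day 20, and 8.31 and 8.22 at day 12. EMD150 was lower in every stratum, the repeats of this fit, with -0.59 ± 0.105 (adjusted p = 0.00713). As Slc50a1 was also picked by this fit, that order of the strata adds no support either. Slc25a15 (-0.65 ± 0.133 (adjusted p = 0.00952)), Slc39a8 (-0.67 ± 0.194 (adjusted p = 0.0314)), 1 probe set of Slc4a4 (NBCe1, bicarbonate, -0.56 ± 0.13 (adjusted p = 0.0146)), Slc39a1 (ZIP1, zinc, -0.55 ± 0.167 (adjusted p = 0.0376)), Slc38a2 (-0.49 ± 0.138 (adjusted p = 0.0284)), 1 probe set of Slc35a1 (CMP-sialic acid, -0.41 ± 0.118 (adjusted p = 0.0311)) and Slc31a2 (-0.28 ± 0.0504 (adjusted p = 0.00713)) were lower too. In 9 genes with several probe sets only some were called. Slc14a2 had another probe set called, at 0.30, while the rest of its probe sets were 0.30, 0.08 and -0.01. The other probe set of Slc4a4 was 0.31 ± 0.108 (adjusted p = 0.0594), of opposite sign, so no direction is given for the gene. The 3 others of Slc35a1 were -0.21, 0.00 and 0.10. Of 50 Abc and Slco probe sets 4 were higher and none lower (8% and 0%, against 6.49% and 7.89% of all probe sets). Leaving out the retinoic acid arrays of bone and of maternal liver at day 20 left 0 members called, with 59 at an unadjusted p under 0.05. Leaving out RA56 of whole embryo as well left 0, with 41. With RA5 and RA56 as separate terms, EMD150 minus RA56 called 52 members, 40 higher and 12 lower. Leaving out single arrays gave 7 to 65 called members, the 65 without RA5 of whole embryo and the 7 without the EMD150 array of bone or the retinoic acid array of embryo liver. Restricting the test to brighter probe sets left 15 of 193 members called, 7 higher and 8 lower. Shares over all probe sets are not given for these alternatives, so the counts show only how the result moved.

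**Figure D4:**
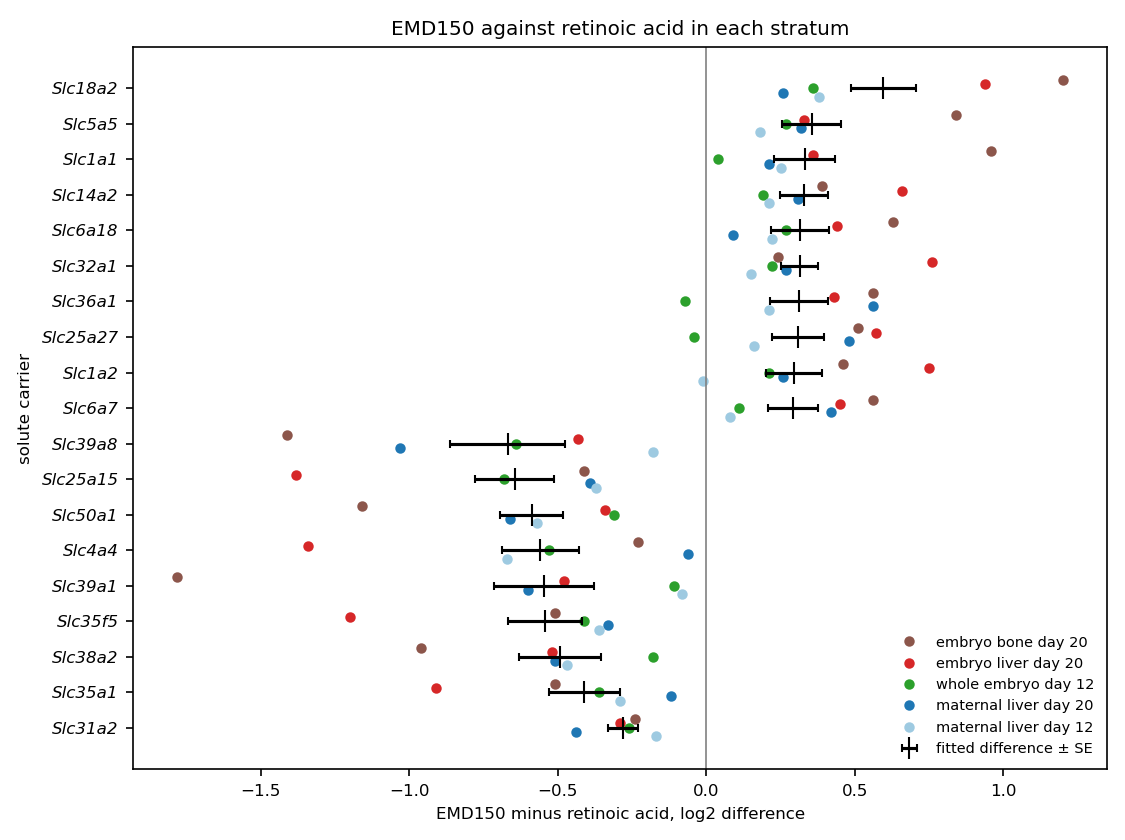
EMD150 minus retinoic acid for the 19 named members called in that comparison: coloured points are the log2 differences within each stratum (at day 12 against the mean of both retinoic acid arrays), and the black mark is the fitted difference with its standard error. The fitted differences run from -0.67 for Slc39a8 to 0.60 for 1 probe set of Slc18a2.

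Within a stratum a treatment had 1 array, so the differences below have no replicate check and no test. In whole embryo, Slc2a2 read 6.47 with EMD50 and 5.99 with EMD150, against 8.37 in the control, differences of -1.90 and -2.38. Retinoic acid arrays read 9.68 and 7.76, on both sides of the control. Slc38a4 read 7.01 and 7.05 with EMD50 and EMD150 and 7.03 and 6.74 with retinoic acid, against 8.58 in the control, so the control stood alone. One probe set of Slc2a3 read 8.62 with EMD50 and 8.52 with EMD150, against 9.62. These 3 were the members at least 2-fold lower with EMD150 than control (1.08% of members past 2-fold, against 0.876% of all probe sets), and none was 2-fold higher. The same genes were past 2-fold with EMD50 (1.08%, against 0.46%), and Slc38a4 alone with the mean of both retinoic acid arrays (0.36%, against 0.977%). The yolk sac list of 5 genes averaged 8.46 with EMD50 and 8.09 with EMD150, against 9.97 in the control, and 10.64 and 9.63 with retinoic acid. Its member Cubn, the cubilin receptor, read 7.32 and 7.10 with EMD50 and EMD150, against 8.48 in the control, and 9.52 and 8.55 with retinoic acid. Slc2a2 and the list had the same order over the 5 arrays, and the part of yolk sac in these values was not tested. Slc7a9, an amino acid carrier of absorbing epithelia, was 6.16 with EMD150, against 7.91 and 6.52 with retinoic acid.

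**Figure D5:**
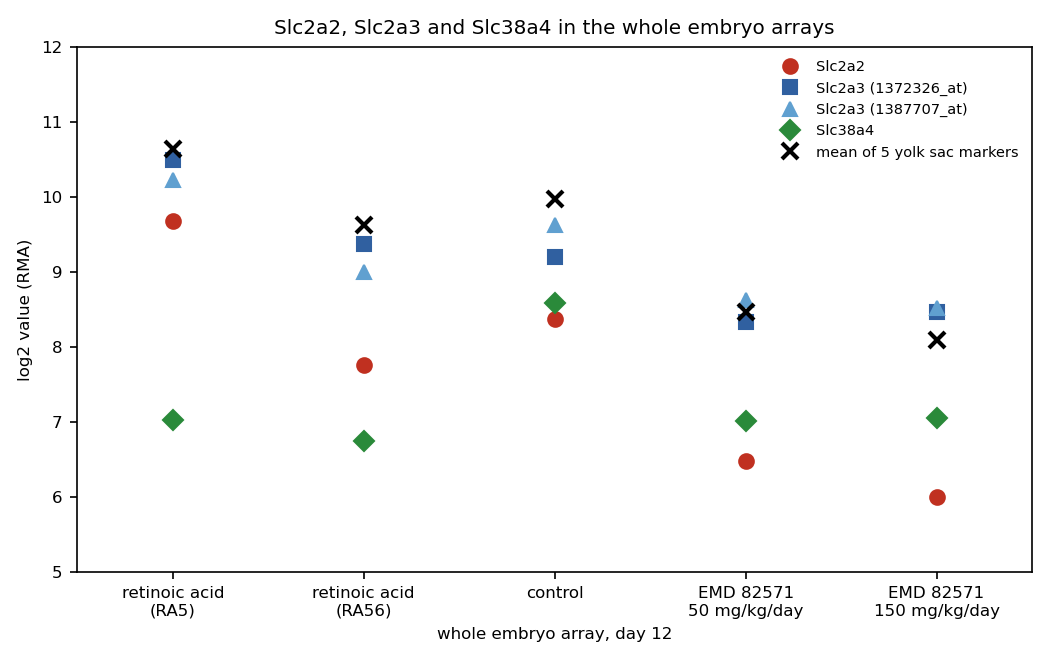
Log2 values of Slc2a2, both probe sets of Slc2a3 and Slc38a4 in the 5 whole embryo arrays of day 12, with the mean of 5 yolk sac marker genes (crosses). Slc2a2 lies at 6.47 and 5.99 in the EMD50 and EMD150 arrays, against 8.37 in the control, and the yolk sac mean at 8.46 and 8.09, against 9.97.

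In embryo liver, carriers that mark all livers or both maternal livers were lowest in the EMD150 array: 12 of the 13 genes, the exception being Slc41a2. Over all probe sets the EMD150 array was the lowest of the 4 in 41.1%, and over all 453 probe sets that mark the liver by the same gap it was the lowest in 323 (71.3%). The gap itself depends on the lowest liver array, as it does for all probe sets. The EMD150 embryo liver also had the smallest SD of all 22 arrays, 1.51. The control and EMD50 embryo livers had 1.58 each and the retinoic acid array 1.64, and the part of this spread was not tested. Slc10a1 was 8.13 with EMD150, against 9.05 in the control, a difference of -0.93. Slc38a4 was 8.04 with EMD150, against 9.08 (-1.04), and Slc16a12 6.83, against 7.70 (-0.86). Slc27a5 was 8.38, against 9.13, and Slc22a7 8.56, against 8.63. Slc25a15, outside the gap rule and named for its size, was 9.44, against 10.45 (-1.01). Past 2-fold against the control were 1 member higher (Slc2a13) and 2 lower with EMD150 (1.08%, against 0.92% of all), and none with EMD50 (0.0567% of all) or retinoic acid (0.99% of all). The hepatocyte marker list averaged 12.27 with EMD150 and 12.25 in the control. Of its genes, Cps1 (12.23, against 12.68), Alb, Ttr and Serpina1 were lower with EMD150. Tat (7, against 6.51), Cyp2e1 (9.06, against 8.66) and Apoa1 were higher. The retinoic acid array was the highest for 8 of the 13, against 26.5% of all probe sets and 242 (53.4%) of the 453 that mark the liver, with Slc10a1 at 9.86. Without the EMD150 embryo liver, 13 members in place of 8 marked the livers as a class.

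In maternal liver at day 20, 4 members were at least 2-fold higher with retinoic acid than in the control (1.44%, against 1.81% of all probe sets past 2-fold in either direction). These were Slc25a4, Slc39a10 (7.79 against 6.64), Slc39a8 and Slc17a3 (10.24 against 9.23). This retinoic acid array held muscle genes (list mean 10.19, against 6.93 in the control). The control held pancreas genes (9.48, against 7.99 with retinoic acid). The part of either in the 4 differences was not tested. Neither EMD50 nor EMD150 had a member past 2-fold there (0.246% and 0.315% of all probe sets), nor had any treatment at day 12 of maternal liver (0.126%, 0.321% and 0.277% for EMD50, EMD150 and retinoic acid). In bone, EMD50 had 2 members at least 2-fold higher and 7 lower (3.24%, against 3.52% of all), in the array with the wide GAPDH difference. Slc4a2 (a chloride and bicarbonate exchanger used by osteoclasts) was 7.85 there, against 9.47 in the control, and 9.08 with EMD150. Slc31a1 was 6.40 with EMD50 and 6.75 with EMD150, against 7.92 in 1 probe set. The hepatocyte list averaged 8.13 and 8.56 in those bone arrays, against 9.68 in the control, and its part was not tested. EMD150 in bone had 0 higher and 2 lower (0.719%, against 0.794%), Slc31a1 and Slc39a1. Retinoic acid in bone had 3 higher and 1 lower (1.44%, against 2.88%): Slc39a8, Slc2a4 (GLUT4, of muscle and fat), Slc6a8, and the neuronal chloride carrier Slc12a5, which was 7.70 with retinoic acid, against 9.06 in the control. In that array the neural marker list averaged 7.23, against 8.41 in the control, and its part was not tested.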

How the data were processed

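Each of the 22 Wistar rat samples was hybridised to a 1-colour array. The values used are the log2 probe set values the authors deposited, and RMA (robust multi-array averaging) is the tool that the submitters' processing notes name; its version and any pooling of RNA are not known here. Of 15923 rows, 57 array controls were left out and 15866 probe sets were tested with no filter. Values ran from 4.86 to 15.22 and array medians from 8.09 to 8.22, with array SDs of 1.51 to 1.83. The number of arrays limits the precision.

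Symbols came from the platform's probe table (12783 probe sets had 1 symbol, 312 several, 2771 none). All 278 member Entrez identifiers were found in the GRCr8 gene table. Left out were 2 Slc25a51 probe sets with several symbols, and 1 gene with such a symbol is not reported here. Members and lists were chosen with earlier results of these data known.

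The tests used limma 3.58.1 (R 4.3.3): linear models of every probe set, moderated by eBayes with its trend option, two-sided. Benjamini-Hochberg adjustment ran over all probe sets within each of 16 comparisons. The model with stratum and treatment had 14 residual degrees of freedom. The model with treatment effects by side (maternal liver, or the 3 strata of embryo and bone) had 11. Differences are on the log2 scale, ± the standard error. In stratum comparisons the text names up to 12 called genes per direction by size; in treatment comparisons up to 10 called, or the 5 smallest p-values; and genes leading a substrate class or a gap. A gene outside this was chosen after its values were seen. The scripts were tested on simulated data. Alternatives were tried for the trend, variance prior, scale, dim probe sets, probe sets per gene, treatment term, arrays used, each array left out and the retinoic acid codes.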

Additional observations from a re-analysis of the deposited data

How the results depend on the processing

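All counts below are members out of 278 unless said. Shares over all probe sets under the alternatives are not given here. The 6 stratum comparisons kept their counts within 1.5 times under every alternative, except that day 20 minus day 12 of maternal liver fell to 13 without the control array of day 20. With each array left out in turn, the counts ran from 97 to 124 for embryo liver minus maternal liver, 147 to 187 for bone minus embryo liver, 13 to 23 for day 20 minus day 12, 87 to 112 for bone minus whole embryo, 184 to 207 for embryo liver minus whole embryo and 164 to 199 for whole embryo minus maternal liver.

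EMD150 minus retinoic acid, with 27 called, was the count that moved most. It was 15 of 193 members (7 higher, 8 lower) when probe sets with no array above the median value were left out. After quantile normalization it was 25 (19 higher, 6 lower). Without the retinoic acid arrays of bone and maternal liver at day 20 it was 0, with or without RA56 of whole embryo. Those fits also held fewer arrays. Leaving out single arrays gave 7 to 65. It was 7 without the EMD150 array of bone or the retinoic acid array of embryo liver and 8 without the EMD150 embryo liver. It was 10 without the retinoic acid array of bone or RA56 of whole embryo, and 12 and 13 with the retinoic acid or the EMD150 array of day 20 maternal liver left out. The count reached 46 without the control and 65 without RA5 of whole embryo. The cause was not tested. Retinoic acid minus control called 1 member with the filter on dim probe sets, over all strata and in embryo tissues alike, and 0 to 1 with single arrays left out in both. The other treatment comparisons called 0 under every alternative run.

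With a gap of 2 log2 units, the members marking whole embryo fell to 0, embryo liver to 1, all livers to 3, both maternal livers to 4 and the embryo tissues to 0, as fewer can pass. Quantile normalization gave 1 for maternal liver at day 20. With single arrays left out, an alternative chosen after seeing the data, the counts ran from 0 to 1 for maternal liver at day 20 and for bone, and from 8 to 13 for all livers, the 13 being without the EMD150 embryo liver. Of the named genes, 139 results in stratum comparisons gave 4901 values on the same side of the threshold and 76 that lost it. The 109 in treatment comparisons gave 3330, 139 that lost it and 7 that gained it, and no direction turned in a called result. Only the retinoic acid codes RA5 and RA56 recur across strata, and no number links a treated array to a control. A replicate block, with RA5 and RA56 as separate terms, was added after seeing the data. It gave 120, 181, 22, 103, 205 and 184 called members in the 6 stratum comparisons in the order above, 0 against control in the treatment comparisons over all strata, and 52 for EMD150 minus RA56. RA5 minus RA56 in whole embryo and in maternal liver at day 12 correlated at -0.140 over 15866 probe sets. With the codes crossed in maternal liver, the block gave 120, 183, 23, 109, 207 and 187.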

Other observations

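Several carriers leading their substrate class followed the livers without marking them by the gap. The vitamin C carrier Slc23a1 averaged 8.46 in embryo liver, 6.93 in whole embryo, 9.42 in maternal liver at day 20 and 10.02 at day 12, and whole embryo minus maternal liver was -3.09 (limma, adjusted p = 2.06e-11). Slc28a2, a purine nucleoside carrier, averaged 7.03 in embryo liver and 8.49 in maternal liver at day 20, a difference of -1.46 (adjusted p = 4.2e-08). The sulfate carrier Slc26a1 averaged 8.84 in whole embryo and 11.40 in maternal liver at day 12, a difference of -2.55 (adjusted p = 1e-11). Slc33a1, which brings acetyl-CoA into the endoplasmic reticulum, was -1.58 (adjusted p = 1.06e-11) in the same comparison. The phosphate carrier Slc20a2 averaged 8.79 in embryo liver and 10.21 in maternal liver at day 20 in 1 probe set, whereas Slc20a1 averaged 10.13 in embryo liver and 8.97 in maternal liver. The 2 phosphate carriers of this family thus had opposite orders, and each comparison was called on its own.

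Of the 4 peptide carrier probe sets, 2 were higher and 2 lower in embryo liver minus maternal liver (50% each, against 16.4% and 16.6% of all probe sets). In embryo liver minus whole embryo 3 were higher and 1 lower (75% and 25%, against 39.2% and 33.6% of all). Shares of 4 probe sets are coarse. The stratum means of Slc15a3 spanned 1.1 log2 units, from 6.71 in whole embryo to 7.81 in maternal liver at day 20. Those of Slc15a4, a lysosomal histidine and peptide carrier, spanned 0.46, and those of Slc15a2 (PEPT2) spanned 0.86, with embryo liver at 8.22 the highest and whole embryo at 7.36 the lowest. The urea carrier Slc14a2 had 5 probe sets, the most of any member, and the one with the widest span covered 0.69.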
